A study of Mus musculus with 132 samples.

Results

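The genes described here are the cytoplasmic aminoacyl-tRNA synthetases and the genes of the amino acid stress response. They were chosen from a list of 35 gene symbols, and 34 of the 35 are present among the 25146 entries of the count table. The symbol Mars is not listed. The table holds Mars1, the current symbol of the methionyl-tRNA synthetase gene, which was followed beside the others and not counted. The list was drawn up with results of these data known, because some of its genes stood at the top of the weak differences between P1-CTCF-KO and wild-type mesoderm. The values of that comparison are therefore given as a description with no test.

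Aminoacyl-tRNA synthetases join each amino acid to its tRNA. When an amino acid is scarce, uncharged tRNA activates the kinase GCN2, which phosphorylates the translation factor eIF2 and favours translation of the transcription factor ATF4. ATF4, with partners of the C/EBP family, then binds a composite element of the sequence TGATGNAA in genes for amino acid synthesis, amino acid uptake and tRNA charging. The kinases PERK, HRI and PKR reach ATF4 through the same step, in response to unfolded protein, heme shortage and double-stranded RNA, so the genes are known as targets of the integrated stress response.

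The study followed Runx1 during in vitro blood formation from the male mouse embryonic stem cell (mESC) line E14-TG2a, of strain 129/Ola. Poly(A)-minus RNA was sequenced in undifferentiated mESCs (day 0), in Flk1+ mesoderm (day 4) and in CD41+ hematopoietic progenitor cells (HPCs, day 7). Mesoderm and HPCs came from 3 wild-type clones (C8.1, C6.1, B9.3) and from clones in which CRISPR/Cas9 removed the CTCF motif next to the Runx1 P1 promoter (P1-CTCF-KO, clones E7.1, E7.2 and E9.1) or P2 promoter (P2-CTCF-KO, clones D2.1, D10.1 and another clone named E9.1). There were 3 mesoderm libraries per genotype, 4 wild-type, 3 P1-CTCF-KO and 5 P2-CTCF-KO HPC libraries, and 2 libraries of undifferentiated wild-type cells. A clone is 1 line, edited or wild-type, and 3 clones (wild-type B9.3, P2-CTCF-KO D10.1 and D2.1) had a second HPC library, marked B9.3-2, D10.1-2 and D2.1-2. The 2 undifferentiated libraries were technical replicates of 1 culture. The study's methods describe depletion of ribosomal RNA for these cells and not for mesoderm or HPCs, so stage and preparation cannot be told apart in any comparison with them. All RNA libraries came from the same parental line. Undifferentiated cells were kept in medium with LIF. Mesoderm was made in serum-free medium with BMP4, to which bFGF and Activin-A were added at day 3. Sorted Flk1+ cells were then grown with SCF and VEGF to give HPCs. These were sorted as CD41+ cells negative for CD45 and for Ter119, a late erythroid surface marker. The ATAC-seq peaks used below came from a derivative of the line, E14-TG2a-RV, that carries a Venus reporter at Runx1 and an mCherry transgene driven by a Runx1 enhancer.

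Libraries held 7805102 to 24406998 counts. Entries for ribosomal RNA, entries listed at several loci and entries spanning over 2.5 Mb took 68.1 and 76.3% of the counts in the undifferentiated libraries and 87.8 to 91% in all others. The 34 genes together held 14684 and 28507 counts in the undifferentiated libraries but only 833 to 2600 in the mesoderm and 476 to 1838 in the HPC libraries, which sets the precision of every value that follows. Levels are given as CPM, the count divided by the library size in units of 1e6 counts. Library sizes were scaled by trimmed means of M values (TMM) over all 23 libraries, which gives the effective size. The effective size was smallest for P1-CTCF-KO HPC libraries E7.1 and E9.1, wild-type HPC B9.3-2 and wild-type mesoderm C6.1. Some spans lie inside longer entries with far more counts, and how shared reads were assigned is not known: Asns, Gars and Mthfd2 lie in the Hrh1 entry, Aars, Farsa, Kars and Slc7a5 in the Tsnax entry, Farsb in the LOC108167347 entry and Vars in the Sult1c1 entry. Defining markers followed the labels. The summed level of Pou5f1, Nanog, Sox2, Esrrb and Zfp42 was 38.5 and 41.5 CPM in undifferentiated cells and at most 4.02 CPM elsewhere, that of Kdr, Pdgfra, Mesp1, T and Eomes was 25.4 to 77.2 CPM in mesoderm against 2.62 to 19.5 CPM in HPCs, and that of Itga2b, Runx1, Gfi1b, Tal1 and Kit was 70.1 to 253 CPM in HPCs against 3.67 to 26.6 CPM in mesoderm.

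The promoters of these genes were searched for the ATF4 element first, because sequence can be read without the measured levels. Several of the genes are known ATF4 targets, so a share above that of other genes is partly built into the list. Each window ran from 250 bases before to 50 bases from the start that the count table lists, in the mm9 genome (NCBIM37), and TGATGNAA was sought on both strands. It was present in the windows of 11 of 34 genes, 32.4%. The share was 3.5% of the windows of all 24959 genes at a single locus and 2.07% of those of the 9055 such genes with enough counts in mesoderm or HPCs. The 11 genes were 7 of 19 synthetases (Aars, Cars, Gars, Iars, Nars, Tars and Yars) and 4 of 15 others (Trib3, Chac1, Slc7a11 and Asns). The strict form TGATGCAA, which is contained in the wider one, occurred in 8 of the 34 windows (23.5%) against 0.801% of all. The windows below show TGATGNAA, in its strict form or not, for some of the genes described later. Capitals mark the 8 bases of each match, which are the reverse complement of the element where the match is on the opposite strand, and each sequence is given 5′ to 3′ on the gene's own strand.
Slc7a11: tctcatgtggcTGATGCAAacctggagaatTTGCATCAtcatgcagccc
Asns: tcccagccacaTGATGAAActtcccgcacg
Chac1: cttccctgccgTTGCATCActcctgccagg
Trib3: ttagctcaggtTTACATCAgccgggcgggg
Tars: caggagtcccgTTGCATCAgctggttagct
Cars: cggcgccgcggTTGCATCAgattctggaag
These stretches lie at chr3:50247564-50247612 (minus strand) for Slc7a11, chr6:7643214-7643243 (minus) for Asns, chr2:119176774-119176803 (plus) for Chac1, chr2:152169764-152169793 (minus) for Trib3, chr15:11329410-11329439 (minus) for Tars and chr7:150785950-150785979 (minus) for Cars. Slc7a11 carried a pair of matches, at 66 and 47 bases before its start, in opposite orientations. In Asns, Gars, Nars and Tars the match began 14 to 29 bases before the start, and in Cars and Trib3 it lay 28 and 15 bases into the transcribed part. A match is a description of letters and not a measured binding site.

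**Figure D1:**
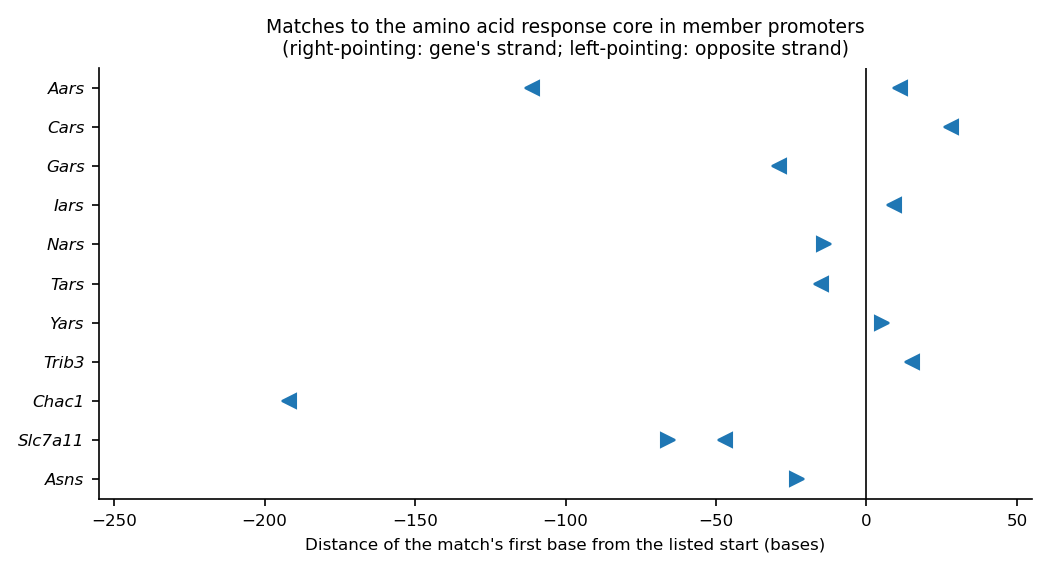
Position of each TGATGNAA match (first base, x axis, in bases from the listed start, which is drawn as a vertical line) in the promoter windows of the 11 genes that hold one. Right-pointing triangles are matches on the gene's strand and left-pointing ones on the opposite strand; most lie within 30 bases of the start, while both matches of Slc7a11 and that of Chac1 are among those farther away.

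Open chromatin was present at nearly all starts. A peak of the ATAC-seq list of wild-type mesoderm, an assay of accessible DNA, lay within 500 bp of the start of 34 of 34 genes, compared with 51.8% of all single-locus genes and 85.8% of those with enough counts. In the HPC list, which is shorter (29037 against 76766 peaks), 29 of 34 starts had a peak (85.3%, exact binomial 95% interval 68.9 to 95%), compared with 34.7% of all genes and 64.7% of those with enough counts. Farsa, Vars, Atf5, Chac1 and Shmt2 had none. A CTCF peak of 416B cells, a mouse hematopoietic progenitor line, lay within 500 bp of 4 starts (Hars, Rars, Trib3 and Mthfd2), 11.8% against 9.11% of all genes and 14.3% of those with enough counts, and only that of Rars overlapped the start itself. Each list was called on merged libraries, so these shares have no replicate.

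The synthetases were the more abundant class. Eprs, the fused enzyme for glutamic acid and proline, held the most counts of any gene on the list (6629 over the 23 libraries). Its level was 11.5 and 11.8 CPM in undifferentiated cells, 11, 12.7 and 13.5 CPM in wild-type mesoderm, and 12.5, 20.2, 18 and 11.9 CPM in wild-type HPCs. Among the other roles, the most counts were held by Atf4 among the transcription factors (1043), by Sesn2, a sestrin that restrains mTORC1 when leucine is low, among the effectors (1854), by Slc3a2, the heavy chain that amino acid exchangers share, among the transporters (2785), and by Asns, asparagine synthetase, among the enzymes of synthesis (1841). Because reads over introns were counted, levels can be compared between genes only per length of the gene's span. On that scale Atf4 was highest in wild-type HPCs (0.898 CPM per kb of span), followed by Vars (0.37), the valyl enzyme, and Ddit3 (0.306), which encodes the stress factor CHOP. In wild-type mesoderm Ddit3 stood at 0.0222 and Atf5 at 0.0274 CPM per kb, below all 19 synthetases (0.0462 to 0.668). Slc7a11, the cystine importer subunit xCT, was lowest in all 3 wild-type stages (at most 0.0105 CPM per kb).

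Differentiation of undifferentiated mESCs to mesoderm was accompanied by lower levels of these genes. In an edgeR quasi-likelihood fit of the 9 wild-type libraries, with Benjamini-Hochberg adjustment over 12899 genes and a call at an adjusted p under 0.05 and a log2 fold change beyond 1, 12 of 34 genes were lower in mesoderm and 0 were higher. Of all genes tested, 13.6% were lower and 10.8% higher. With no limit on the fold change 14 of 34 passed, against 27.2% of all genes. The 12 were the synthetases Tars, Cars, Sars, Nars, Aars and Iars, the transporters Slc1a5 (neutral amino acids, glutamine among them) and Slc3a2, the enzymes Asns and Psat1 (serine synthesis), and the effectors Sesn2 and Chac1. Beside those described next, the log2 fold changes were -1.49 for Sesn2, -1.42 for Slc1a5 and Psat1, -1.22 for Sars, -1.21 for Nars, -1.17 for Aars, -1.12 for Iars and -1.11 for Slc3a2. Mars1, outside the count, was also lower (log2 fold change -1.02, SE 0.28, adjusted p = 0.018). The median log2 fold change of the 19 synthetases was -0.5, beside -0.18 for all genes. Of the 12 genes, 7 hold TGATGNAA, which is 58.3% of them and 63.6% of the 11 genes with a match, beside 32.4% of the 34 genes. In the stage steps described below, it was held by 2 of 4 genes called higher in wild type, 2 of 3 in P1-CTCF-KO and 3 of 4 in P2-CTCF-KO. Of the 3 called lower in P1-CTCF-KO 0 held it. For wild-type HPCs against undifferentiated cells it was 1 of 3 higher and 0 of 3 lower genes. None of these shares was tested.

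Asns fell from 5.72 and 3.68 CPM in undifferentiated cells to 1.37, 1.21 and 0.616 CPM in mesoderm (log2 fold change -2.07, SE 0.5, adjusted p = 0.01). Tars, the threonyl enzyme, fell from 4.2 and 4.12 CPM to 1.31, 0.848 and 1.11 CPM (-1.81, SE 0.36, adjusted p = 0.004). Cars, the cysteinyl enzyme, fell from 7.93 and 6.97 CPM to 2.74, 2.06 and 2.52 CPM (-1.5, SE 0.27, adjusted p = 0.0021). In each of the 3 genes the groups did not overlap. How often that holds over all genes was not counted, so it is no result about these genes or the list. Chac1, an enzyme that degrades glutathione, had 67 and 25 counts in undifferentiated cells and 1, 0 and 0 in mesoderm, a ratio of pooled counts of 14.4 with an exact 95% counting interval of 2.53 to 576. Its call (log2 fold change -3.55, SE 1.16, adjusted p = 0.04) was lost under DESeq2 (adjusted p = 0.11), with the libraries of a clone summed (0.12), and without any 1 of the undifferentiated or wild-type mesoderm libraries (0.06 to 0.22). None of the 3 transcription factors was called. Ddit3 had 22 and 11 counts (0.13 and 0.117 CPM) in undifferentiated cells and 1, 1 and 3 counts (0.0596, 0.121 and 0.185 CPM) in mesoderm, which overlapped (log2 fold change 0.05, SE 0.87, adjusted p = 0.98). These results rest on the technical pair, since the count of 12 became 2 without undifferentiated library 1, 6 without library 2 and 6 with the pair summed. They also use the wild-type mesoderm libraries of the comparison that the list was drawn from, and genes chosen as lower there than in P1-CTCF-KO mesoderm are favoured to be lower in this comparison too.

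From mesoderm to HPCs, Ddit3, Trib3 and Slc7a11 went from a few counts per library to more in each genotype, and most synthetases were not called. In a fit of the 21 mesoderm and HPC libraries (9170 genes tested), Ddit3, Trib3 and Slc7a11 were called higher in all 3 genotypes, Atf5 in wild type and Cars in P2-CTCF-KO. The counts were 4 of 33 tested genes higher and 0 lower in wild type, 3 higher and 3 lower in P1-CTCF-KO, and 4 higher and 0 lower in P2-CTCF-KO. Over all genes tested, 13.3% were higher and 13.9% lower in wild type, 16.6 and 16.1% in P1-CTCF-KO, and 16.5 and 11.7% in P2-CTCF-KO, so the shares among the 33 are no result in themselves. Chac1 was not tested. Ddit3, Trib3, Slc7a11, Atf5 and Mthfd2 reached the count filter in none of the 9 mesoderm libraries and in 6 to 8 of the 12 HPC libraries, so they entered the fit through HPCs alone, and their number among the genes tested says nothing about the list. In a fit with no filter on low counts the same genes were called in each genotype (adjusted p 0.0015 to 0.019 for Ddit3, 0.00079 to 0.0038 for Slc7a11, 0.041 to 0.046 for Trib3, and 0.016 for Atf5 in wild type). That fit rests on the same libraries and the same few mesoderm counts, so it is no separate support for the calls.

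Ddit3 had 1, 1 and 3 counts in wild-type mesoderm (0.0596, 0.121 and 0.185 CPM) and 17, 28, 10 and 11 counts in wild-type HPCs (1.46, 3.4, 0.935 and 0.927 CPM). The lowest HPC library stood above the highest mesoderm library. The log2 fold change was 3.7 (SE 1.03, adjusted p = 0.0093), and the pooled counts gave a ratio of 12.8 (counting interval 5.24 to 40.9). In P1-CTCF-KO the mesoderm libraries had 1, 2 and 5 counts and the HPC libraries 7, 18 and 3, with levels of 0.0598, 0.086 and 0.337 against 1.36, 1.92 and 0.373 CPM (log2 fold change 3.03, SE 1.03, adjusted p = 0.025). That call was lost without HPC library E7.1 (adjusted p = 0.051) or E7.2 (0.14), or without mesoderm library E7.1 (0.076) or E7.2 (0.087). P2-CTCF-KO mesoderm had a single count in 3 libraries, and the 5 HPC libraries had 2 and 9 (D10.1 and D10.1-2), 4 and 24 (D2.1 and D2.1-2) and 31 (E9.1), a ratio of 47.6 with an interval of 8.27 to 1910 (log2 fold change 5.28, SE 1.29, adjusted p = 0.0035). The entry shares 69 bp with Mars1 at the 3′ ends, and the strand setting of the counting is not given, so reads there cannot be assigned to either gene.

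Slc7a11 showed the same order with still fewer counts. Wild-type mesoderm had 1, 0 and 0 counts and wild-type HPCs 13, 2, 10 and 12 (1.12, 0.243, 0.935 and 1.01 CPM), a ratio of 36 with an interval of 6.07 to 1460 (adjusted p = 0.0032). P1-CTCF-KO had 0, 0 and 1 counts in mesoderm and 6, 1 and 7 in HPCs (adjusted p = 0.0043). P2-CTCF-KO had 0 counts in all 3 mesoderm libraries and 14, 12, 3, 5 and 9 in HPCs (adjusted p = 0.0012). The ratio was 9.75 against an assumed floor of 3 counts over the 3 mesoderm libraries together, and the counting interval had a lower bound of 7.6. In wild-type HPCs it was also higher than in undifferentiated cells, which had 12 and 3 counts at a larger depth (0.0711 and 0.0318 CPM; log2 fold change 4.02, SE 0.58, adjusted p = 0.00024).

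Trib3 encodes a pseudokinase that restrains ATF4 and CHOP. It had 3, 0 and 2 counts in wild-type mesoderm and 6, 11, 11 and 4 in HPCs, or 0.179, 0 and 0.123 against 0.516, 1.34, 1.03 and 0.337 CPM (log2 fold change 2.69, SE 0.98, adjusted p = 0.041). In P1-CTCF-KO it had 2, 3 and 2 counts against 4, 12 and 2 (2.6, SE 1, adjusted p = 0.045), and in P2-CTCF-KO 2, 1 and 3 against 1, 12, 1, 15 and 17 (2.48, SE 0.92, adjusted p = 0.04). The P2-CTCF-KO groups overlapped, because HPC libraries D10.1 and D2.1 had a single count each. All 3 calls were lost when clones were paired across stages as a replicate block, at adjusted p = 0.095 in wild type, 0.093 in P1-CTCF-KO and 0.06 in P2-CTCF-KO. The wild-type call was also lost without any wild-type mesoderm library or HPC library B9.3-2 or C6.1 (adjusted p up to 0.099), the P1-CTCF-KO call without any P1-CTCF-KO mesoderm library, HPC library E7.1 or E7.2 or wild-type HPC library C6.1 (up to 0.24), and the P2-CTCF-KO call without any P2-CTCF-KO mesoderm library or HPC library D10.1-2, D2.1-2 or E9.1 (up to 0.11).

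Atf5, a further factor of the ATF4 family, had 2, 2 and 0 counts in wild-type mesoderm and 6, 10, 15 and 9 in HPCs (0.119, 0.242 and 0 against 0.516, 1.22, 1.4 and 0.759 CPM; log2 fold change 3.17, SE 1, adjusted p = 0.019). In P1-CTCF-KO its 5, 4 and 6 mesoderm counts stood against 5, 7 and 2 (1.22, SE 0.94, adjusted p = 0.31), and in P2-CTCF-KO 0, 3 and 2 against 7, 16, 0, 8 and 8 (2.42, SE 0.95, adjusted p = 0.051). The difference between the P2-CTCF-KO and wild-type steps was -0.75 (SE 1.48, adjusted p = 0.99). The wild-type call was lost without mesoderm library B9.3 (adjusted p = 0.056) or C8.1 (0.089), and in P2-CTCF-KO DESeq2 made the call (adjusted p = 0.034), as did edgeR with all 23 libraries in the fit (0.045), with libraries of a clone summed (0.028), and without HPC library D2.1 (0.0053) or wild-type mesoderm library C8.1 (0.047). Atf5 shares 572 bp with Nup62 and 290 bp with Il4i1b on the opposite strand. Atf4 itself is controlled mainly in translation, and its RNA was 1.07, 1.7 and 1.66 CPM in wild-type mesoderm and 1.38, 2.92, 2.34 and 1.85 CPM in HPCs, which overlapped.

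**Figure D2:**
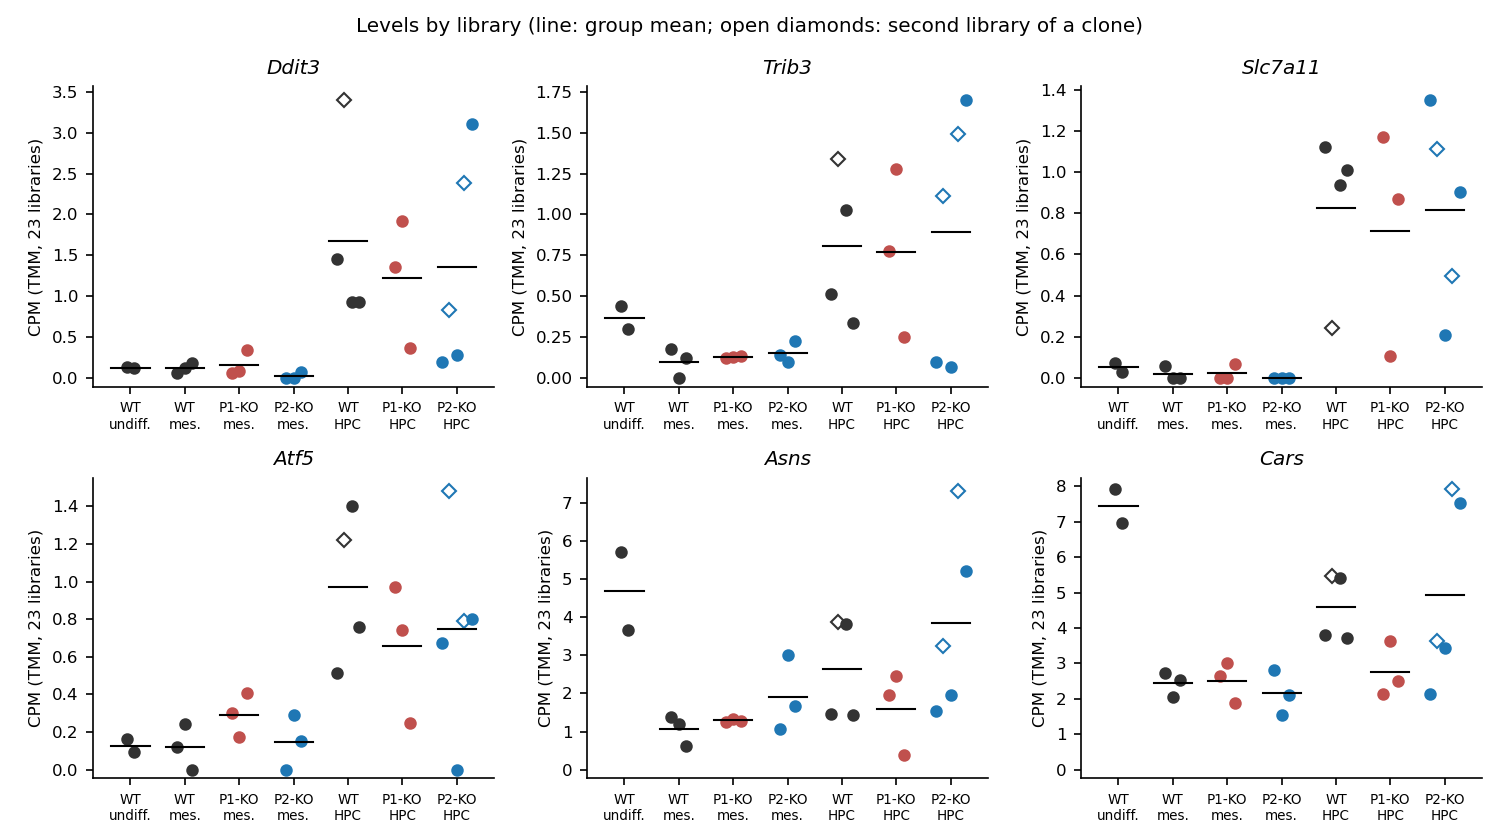
Level of 6 genes (y axis, CPM on the TMM scale of all 23 libraries) in each library of the 7 groups (x axis; mes., mesoderm; undiff., undifferentiated; KO, CTCF-KO). Points are libraries, open diamonds the second HPC library of a clone, and lines group means; Ddit3 and Slc7a11 are at most 0.337 CPM in every mesoderm library and spread widely among HPC libraries, and Asns and Cars are high in undifferentiated cells.

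Among the synthetases the stage step was small and differed from enzyme to enzyme. In wild type 16 of 19 had a log2 fold change above 0, as had 50.5% of all genes. The median of the synthetases was 0.42 beside 0.01 for all genes, and they ranged from -0.82 (Vars) to 0.95 (Tars). In P2-CTCF-KO 14 of 19 were above 0 (median 0.44), where all genes had a median of 0.09 and 54.1% above 0. In P1-CTCF-KO 8 of 19 were above 0 (median -0.07), where all genes had a median of -0.07 and 47.5% above 0. The libraries of P2-CTCF-KO were not alike. The summed level of the synthetases went from 78.3 CPM in D10.1 mesoderm to 68.5 CPM in HPC library D10.1 and 104 CPM in D10.1-2. It went from 103 CPM in D2.1 mesoderm to 83.6 CPM in D2.1 and 140 CPM in D2.1-2, and from 82.6 to 132 CPM in E9.1. P1-CTCF-KO had no second HPC libraries, which ran higher than the first of the same clone. Genotype and the mix of first and second libraries therefore cannot be told apart in the medians of the steps. The wild-type and P1-CTCF-KO steps start from the mesoderm libraries that chose the list, which favours a rise in wild type and a fall in P1-CTCF-KO. The P2-CTCF-KO step compares none of those libraries, but they are part of the same fit and enter its filter, scaling and spread. At an adjusted p under 0.05 with no limit on the fold change, 8 of 33 genes passed in wild type, 7 in P1-CTCF-KO and 6 in P2-CTCF-KO, compared with 34, 39.4 and 37.3% of all genes. The synthetases among them were Nars, Aars, Iars and Vars in wild type, Nars and Vars in P1-CTCF-KO, and Cars, Nars and Lars in P2-CTCF-KO. Vars was lower in HPCs and the others were higher.

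Nars, the asparaginyl enzyme, passed in all 3 genotypes. Its level was 2.15, 2.79 and 1.91 CPM in wild-type mesoderm and 2.93, 3.53, 4.02 and 3.62 CPM in HPCs (log2 fold change 0.67, SE 0.22, adjusted p = 0.025). The step was 0.74 in P1-CTCF-KO (SE 0.23, adjusted p = 0.017) and 0.93 in P2-CTCF-KO (SE 0.21, adjusted p = 0.0023), and the groups did not overlap in any genotype. Vars took the opposite course, at 9.36, 10.8 and 10.8 CPM in wild-type mesoderm and 5.34, 7.42, 5.51 and 4.55 CPM in HPCs (-0.82, SE 0.26, adjusted p = 0.02). In P1-CTCF-KO its step was -1.13 (SE 0.29, adjusted p = 0.005), beyond the limit of 1 except without mesoderm library E9.1 (-0.86), and in P2-CTCF-KO -0.57 (SE 0.25, adjusted p = 0.076). The span of Vars lies inside the Sult1c1 entry, which held 400067 counts over all libraries against 4733 for Vars.

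Among the stage steps, Cars was called in that of P2-CTCF-KO. It stood at 2.82, 1.55 and 2.11 CPM in P2-CTCF-KO mesoderm and at 2.12, 3.62, 3.43, 7.92 and 7.52 CPM in HPCs, and the groups overlapped through HPC library D10.1 (log2 fold change 1.25, SE 0.39, adjusted p = 0.016). The call was lost without mesoderm library D2.1 (1.05, adjusted p = 0.076), mesoderm library E9.1 (1.22, adjusted p = 0.054) or HPC library D2.1-2, where the log2 fold change no longer passed the limit (adjusted p = 0.042). In wild type the step was 0.93 (SE 0.39, adjusted p = 0.076), and the difference between the genotypes was 0.32 (SE 0.54, adjusted p = 0.99).

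Phgdh, Slc7a5 and Vars were called lower in P1-CTCF-KO HPCs than in mesoderm. Genes chosen as high in P1-CTCF-KO mesoderm are favoured to be lower in this step, so the calls are not independent of the list. Phgdh, which opens serine synthesis, had 20, 51 and 12 counts in P1-CTCF-KO mesoderm (1.2, 2.19 and 0.809 CPM) and 1, 3 and 4 in HPCs (0.195, 0.319 and 0.497 CPM), with no overlap (log2 fold change -1.91, SE 0.57, adjusted p = 0.013). Slc7a5, the large neutral amino acid transporter LAT1, stood at 4.79, 3.35 and 5.06 CPM in mesoderm and at 1.75, 1.81 and 0.87 CPM in HPCs (-1.49, SE 0.53, adjusted p = 0.031). In wild type the steps of both were smaller, -0.42 for Phgdh (SE 0.43, adjusted p = 0.49) and -0.06 for Slc7a5 (SE 0.45, adjusted p = 0.93). Whether P1-CTCF-KO and wild-type steps differ was not tested, since that contrast contains the comparison behind the list. The Phgdh call was lost without HPC library E7.1 (adjusted p = 0.052) or E7.2 (0.056) or mesoderm library E7.2 (0.072). The Slc7a5 call was lost without any P1-CTCF-KO HPC library or mesoderm library E7.1 or E9.1 (adjusted p 0.054 to 0.13) and with clones paired as a replicate block (adjusted p = 0.051). P1-CTCF-KO HPC libraries E7.1 and E9.1 are among those with the smallest effective size, and the part of depth in these values was not tested.

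**Figure D3:**
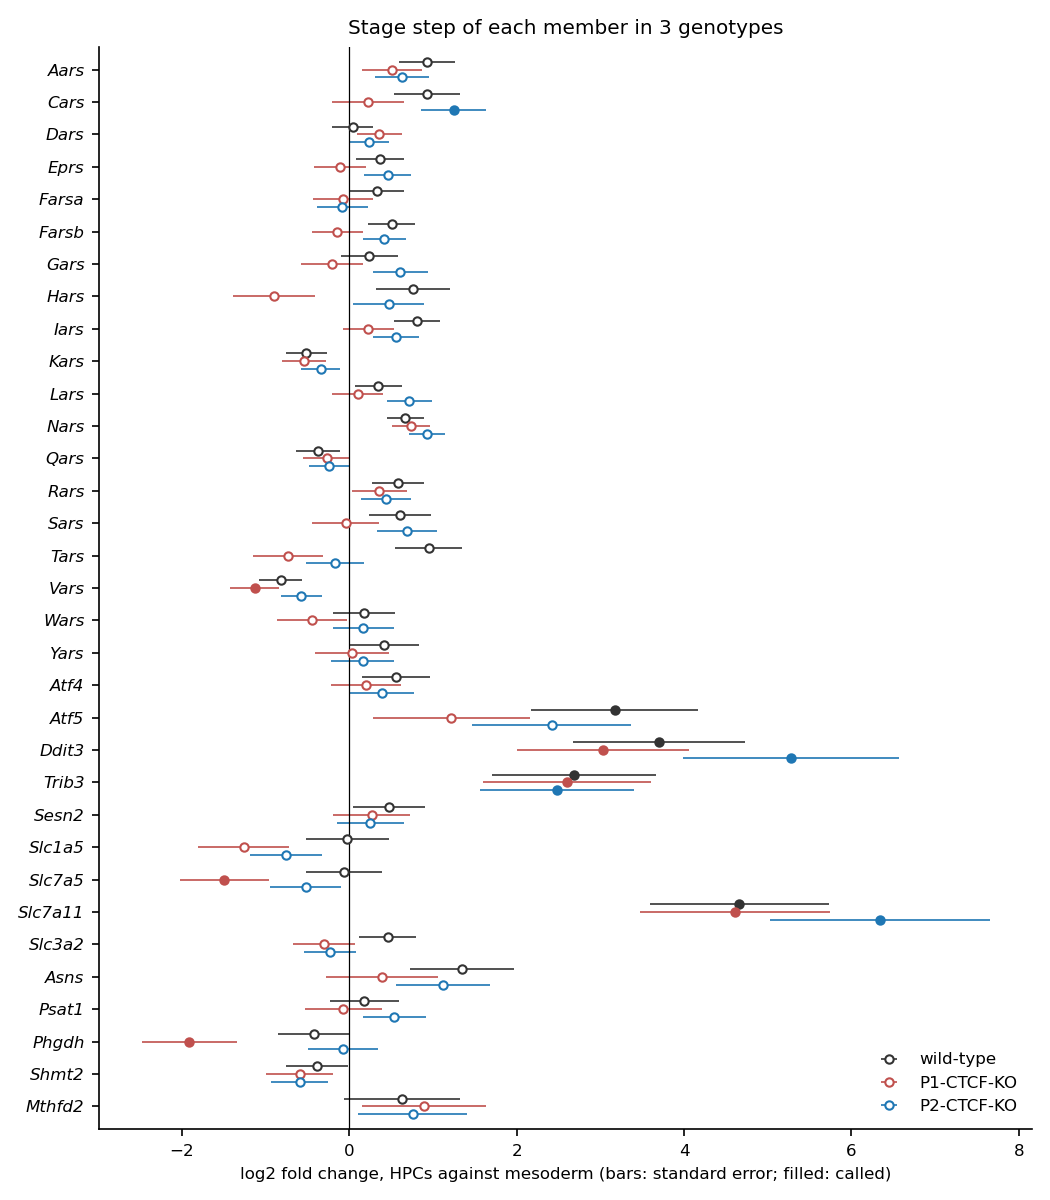
Log2 fold change of HPCs against mesoderm (x axis) for the 33 tested genes (y axis), with wild type in black, P1-CTCF-KO in red and P2-CTCF-KO in blue. Bars are standard errors, and filled points are called at an adjusted p under 0.05 and a log2 fold change beyond 1. Synthetase points lie between -1.13 and 1.25. Slc7a11, Ddit3 and Trib3 lie to the right of them, as does Atf5 except in P1-CTCF-KO (1.22). Slc7a11, Ddit3, Trib3 and Atf5 entered the fit through HPCs alone.

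Against undifferentiated cells, wild-type HPCs had 3 of the 34 genes higher (Slc7a11, Ddit3 and Atf5) and 3 lower (Slc1a5, Psat1 and Phgdh), where 17% of all genes were higher and 25% lower. With no limit on the fold change 11 passed, against 47.9% of all genes. No mesoderm library is compared here, but those of wild type are part of the same fit and enter its filter, scaling and spread. Ddit3 was at 0.13 and 0.117 CPM in undifferentiated cells and at 0.927 to 3.4 CPM in HPCs (log2 fold change 3.82, SE 0.59, adjusted p = 0.00033), and Atf5 at 0.16 and 0.0955 CPM against 0.516 to 1.4 CPM (2.98, SE 0.57, adjusted p = 0.0013). Of the 3 lower genes, Slc1a5 had the largest step (-1.43, SE 0.38, adjusted p = 0.009), with 2.34 and 1.93 CPM against 0.861, 0.973, 0.841 and 0.253 CPM. With libraries of a clone summed, the calls of Slc1a5 (adjusted p = 0.056) and Phgdh (0.092) were lost. Without undifferentiated library 1 all 3 were lost (0.07 to 0.15), without undifferentiated library 2 that of Phgdh (0.084), and without HPC library C8.1 that of Psat1, whose log2 fold change was then within the limit of 1. The 3 higher genes were called under each of these settings. They had few counts in the undifferentiated libraries (3 to 12 for Slc7a11, 11 to 22 for Ddit3 and 9 to 27 for Atf5) and entered the fit mainly through HPCs. Their number among the genes called is therefore no result about the list. None of the 19 synthetases was called, and their log2 fold changes ran from -0.94 to 0.57, beside a median of -0.24 for all genes. Over all tested comparisons 15 of the 34 genes were never called: 12 synthetases (Dars, Eprs, Farsa, Farsb, Gars, Hars, Kars, Lars, Qars, Rars, Wars and Yars), Atf4, and the one-carbon enzymes Shmt2 and Mthfd2.

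Other genes around the same pathway were counted from lists, with the stage step given first for wild type, then for P1-CTCF-KO and last for P2-CTCF-KO. With 3 to 14 genes tested per list and 11.7 to 16.6% of all genes called in either direction alone, most of the counts are near that background and are no result about the lists. Of 23 further ATF4 targets 12 were tested, and 3, 1 and 4 were higher while 2, 3 and 2 were lower. Slc6a9, a glycine transporter, was higher in all 3 genotypes (log2 fold change 3.22, 2.39 and 3.69) and Vldlr, a lipoprotein receptor, was lower in all 3 (-4.42, -4.26 and -4.48). Of 14 genes for eIF2 kinases, phosphatases and the exchange factor eIF2B 12 were tested, and 1, 3 and 2 were higher while 0, 1 and 1 were lower. Eif2ak1, which encodes the heme-regulated kinase HRI, was higher in all 3 (2.54, 2.8 and 2.35). Of 14 endoplasmic reticulum (ER) chaperones and related genes 12 were tested, with 1, 2 and 1 higher and 1, 3 and 2 lower: Herpud1, of ER-associated degradation, was higher in all 3 (3.02, 2.16 and 2.52) and Pdia4, a disulfide isomerase, lower in all 3 (-1.01, -1.92 and -1.67). Herpud1 had 1 to 10 counts and Slc6a9 2 to 18 counts in the mesoderm libraries, and Vldlr 0 to 12 counts in the HPC libraries, so these genes entered the fit mainly through the stage where they are high. Of 17 mitochondrial synthetases 14 were tested, with 1 higher and 1 lower in each genotype, Fars2 being the higher one throughout (1.19, 2.05 and 1.46). None of the 3 scaffold genes of the multisynthetase complex was called. Erythroid markers (Hbb-bh1, Hba-x, Gata1, Klf1 and Epor) moved with the same step, at 25.9 to 160 CPM in sum in HPCs and at most 0.656 CPM in mesoderm, with Hba-x at 0 in P1-CTCF-KO mesoderm and Hbb-bh1, Hba-x and Klf1 at 0 in P2-CTCF-KO mesoderm. The sort would remove Ter119+ cells. Their part in the results was not tested, and in bulk RNA a change in the cells present cannot be told apart from a change in RNA per cell.

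HPC libraries of 1 group differed widely from each other in these genes. The summed level of the 34 genes was 98 CPM in wild-type HPC library B9.3, 154 in B9.3-2, 143 in C6.1 and 97.7 in C8.1, then 92.6, 117 and 83.1 CPM in P1-CTCF-KO (E7.1, E7.2 and E9.1), and 81.9, 132, 101, 182 and 169 CPM in P2-CTCF-KO (D10.1, D10.1-2, D2.1, D2.1-2 and E9.1). In mesoderm the sums ran from 92.4 to 134 CPM. In each of the 3 clones with a second HPC library that library was the higher one. Among genes with at least 10 counts in the pair, 30 of 33 were higher in B9.3-2 than in B9.3, 29 of 32 in D10.1-2 than in D10.1, and 29 of 31 in D2.1-2 than in D2.1, where 44.4, 47.5 and 47.5% of all genes were. The median log2 ratio of the second to the first library, with 0.5 counts added, was 0.69, 0.75 and 0.86, compared with -0.1, -0.06 and -0.06 for all genes. With library sizes taken from the counts outside ribosomal and multi-locus entries it was 0.6, 1 and 0.9, against -0.2, 0.19 and -0.02.

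Asns was 1.46, 1.55 and 1.96 CPM in the first libraries of B9.3, D10.1 and D2.1 and 3.89, 3.25 and 7.33 CPM in the second. Ddit3 went from 1.46, 0.193 and 0.28 CPM to 3.4, 0.835 and 2.38 CPM, and Trib3 from 0.516, 0.0966 and 0.07 CPM to 1.34, 1.11 and 1.49 CPM. Slc7a11 had no common direction, with 13 against 2 counts in B9.3, 14 against 12 in D10.1 and 3 against 5 in D2.1. The ER chaperone list moved the other way: 3 of 13, 0 of 12 and 2 of 12 genes were higher in the second library, and its summed level fell from 68.5, 58.1 and 49.3 CPM to 43.9, 29.8 and 37.2 CPM. The labels do not say how the second libraries differ from the first. No test was made with 3 clones.

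**Figure D4:**
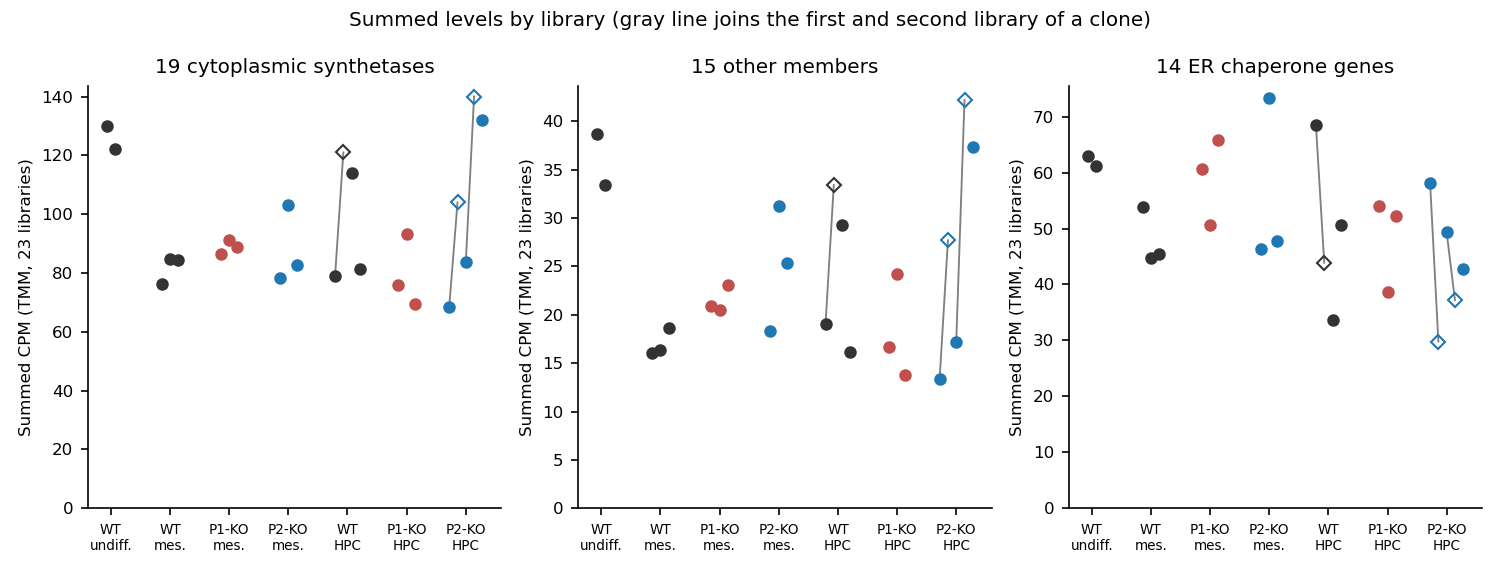
Summed CPM (y axis) of the 19 synthetases, the 15 other genes and the 14 ER chaperone genes in each library of the 7 groups (x axis, abbreviated as in the plot of 6 genes). Points are libraries, open diamonds second libraries, and gray lines join them to the first library of the clone; the lines rise in the first 2 panels and fall in the third.

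Within HPCs no gene of the list was called between genotypes. In the fit of the 12 HPC libraries (7422 genes tested) edgeR called 0 of 33 for P1-CTCF-KO against wild type, where 0% of all genes were called, and 2 had an unadjusted p under 0.05, as had 260 of the 7422 genes. For P2-CTCF-KO against wild type it called 0 of 33, with 0% of all genes called and 0 at an unadjusted p under 0.05, where 145 of all genes were. DESeq2 also called 0 of the 33 in each, and its share over all genes was not counted. Phgdh was the most different in P1-CTCF-KO, at 0.195, 0.319 and 0.497 CPM against 1.03, 1.09, 1.21 and 0.927 CPM in wild type. The groups did not overlap, but the log2 fold change of -1.53 (SE 0.56) had an adjusted p of 0.91. In P1-CTCF-KO the synthetases had a median log2 fold change of -0.24, with 15 of 19 below 0 (all genes: median -0.01, 49.3% above 0). In P2-CTCF-KO the median was 0.12, with 17 of 19 above 0 (all genes: median 0.03, 54.4% above 0). Second HPC libraries ran higher in these genes and belonged to wild type (B9.3-2) and P2-CTCF-KO (D10.1-2 and D2.1-2) only. Genotype and the mix of first and second libraries therefore cannot be told apart in these medians.

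When P2-CTCF-KO mesoderm was set against wild type, edgeR called 0 of 28 tested genes, where 0.0342% of 8778 genes were called, and 4 had an unadjusted p under 0.05, as had 1409 of all genes, which is no smaller a share. DESeq2 called 0. Atf5, Ddit3, Trib3, Chac1, Slc7a11 and Mthfd2 had too few counts in mesoderm to be tested. Tars had the largest difference, at 2.05, 3.39 and 2.03 CPM in P2-CTCF-KO against 1.31, 0.848 and 1.11 CPM in wild type (log2 fold change 1.15, SE 0.28, adjusted p = 0.14). Slc1a5 stood at 1.48, 1.55 and 1.88 against 0.835, 0.727 and 0.677 CPM (1.14, SE 0.31, adjusted p = 0.15). Neither gene's groups overlapped. Slc3a2 was at 3.53, 6.89 and 5.79 against 2.5, 2.79 and 3.57 CPM (0.87, SE 0.27, adjusted p = 0.17), and the groups overlapped. Markers of other cells moved with the same comparison: the mesoderm list summed to 62.4 to 77.2 CPM in P2-CTCF-KO against 25.4 to 45.6 CPM, the HPC list to 3.67 to 10.5 against 18.2 to 26.6 CPM, and a list of 5 endothelial markers to 0.494 to 0.602 against 1.82 to 71.8 CPM. The undifferentiated list summed to 0.903 to 4.02 against 0.242 to 1.05 CPM. Tars, Slc1a5 and Slc3a2 also stood higher in undifferentiated cells than in wild-type mesoderm. Both comparisons take the same wild-type mesoderm libraries as baseline, and these had a part in choosing the list, so the likeness is not independent. No marker of these lists was at 0 throughout either group. Their part in these values was not tested. The effect of P2-CTCF-KO in HPCs minus that in mesoderm was called for 0 of 33 genes by edgeR and by DESeq2 (share of all genes not counted for DESeq2). By edgeR 0.0218% of all genes were called. Of 9170 genes 643 had an unadjusted p under 0.05 by edgeR, among them 1 of the 33. That gene was Tars (-1.12, SE 0.53, adjusted p = 0.7).

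The comparison of P1-CTCF-KO with the same 3 wild-type mesoderm libraries chose the list, so its values are a description. The 5 highest log2 fold changes of the 28 genes were those of Tars (1.07), Slc1a5 (1.04), Hars (0.88), Atf4 (0.51) and Slc3a2 (0.44). The 5 lowest were those of Wars (-0.3), Psat1 (-0.22), Dars (-0.22), Gars (-0.07) and Phgdh (-0.04). Tars was at 2.39, 2.62 and 2.09 CPM in P1-CTCF-KO mesoderm, Slc1a5 at 1.26, 1.38 and 2.09 CPM, and Hars at 1.56, 1.33 and 1.62 CPM against 0.537, 0.485 and 1.29 CPM in wild type. The counts behind Hars were 26, 31 and 24 against 9, 4 and 21. The median over the 28 genes was 0.17, beside -0.01 for all genes, and it ranged from 0.14 to 0.25 when each mesoderm library was left out in turn. Single genes moved more: Phgdh was -0.54 without P1-CTCF-KO library E7.2 and 0.39 without wild-type C8.1, Dars 0.07 without wild-type C6.1, Wars -0.06 without P1-CTCF-KO E9.1, Psat1 -0.03 without P1-CTCF-KO E7.1 and -0.47 without E9.1, Gars -0.14 to -0.01, Atf4 0.3 without wild-type B9.3, and Hars 1.49 without wild-type C8.1. Tars ranged from 0.97 to 1.22, Slc1a5 from 0.77 to 1.17 and Slc3a2 from 0.31 to 0.59. For P2-CTCF-KO against those wild-type libraries, Hars was at 0.34, Atf4 at 0.32, Wars at -0.19, Psat1 at 0.07, Dars at -0.07, Gars at -0.13 and Phgdh at -0.24. Both knockouts are set against the same wild-type libraries, so a likeness between the 2 columns of values is no independent repeat.

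**Figure D5:**
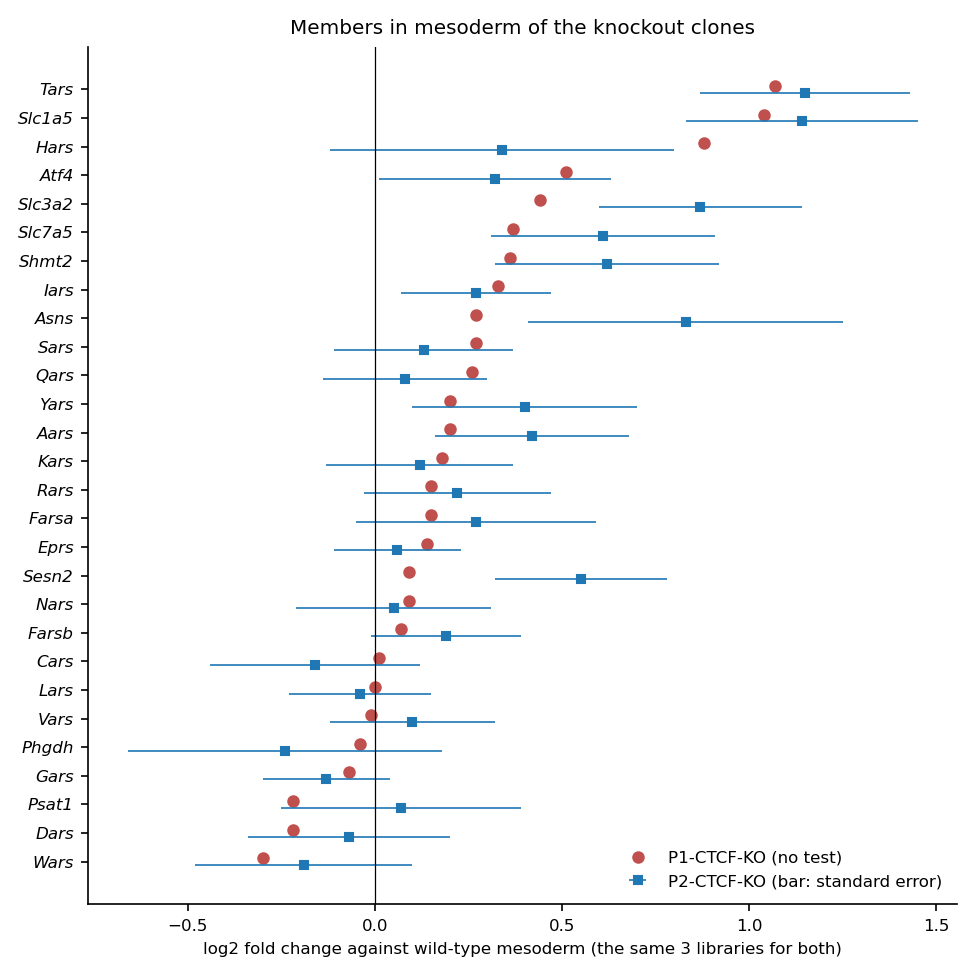
Log2 fold change against wild-type mesoderm (x axis) of the 28 genes with enough counts (y axis, ordered by the P1-CTCF-KO value), for P1-CTCF-KO (red circles, no test) and P2-CTCF-KO (blue squares, bars are standard errors). Tars and Slc1a5 are farthest to the right for both, and the same 3 wild-type libraries enter both.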

How the data were processed

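Poly(A)-minus RNA-seq counts were used as deposited: whole-number counts per gene over exons and introns (mm9) that the authors made with STAR and featureCounts after removing PCR duplicates. The library kit keeps strand, and the strand setting of the counting is not given in the sources used here. Coordinates of genes and peaks are per the file headers and the deposited lists, and the authors called each peak list with MACS2 on merged libraries. The genes and lists were chosen with earlier results of these data known. Named with values were genes called in a tested comparison, genes whose call differed between the stage steps of the genotypes, the 5 highest and 5 lowest in P1-CTCF-KO mesoderm, and the gene with the most counts per role.

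Differences were tested with edgeR 4.0.16 (R 4.3.3; TMM, filterByExpr with a minimum count of 10, quasi-likelihood test, Benjamini-Hochberg adjustment over all genes tested; SE is the log2 fold change divided by the square root of F). The fits held the 9 wild-type, the 9 mesoderm, the 12 HPC or the 21 mesoderm and HPC libraries. Alternatives were DESeq2 1.42.0, RLE scaling, no filter, no limit on the fold change, library sizes without 187 ribosomal, multi-locus or over 2.5 Mb entries, libraries of a clone summed, a fit of all 23 libraries, clone as a block, and leaving out each library in turn. The scripts were tested on simulated data. Counting intervals are exact conditional binomial at 95% and, like the floor of 3 counts, cover counting error only. A clone is the same cell line in both stages, so clone names pair mesoderm with HPCs; deviations of a clone from its genotype's mean correlated at -0.05 to 0.16 between stages, over 0.1 in 1 of 9 clones. Replicates are clones of 1 parental line, second libraries of a clone share it, and p-values measure the spread between these libraries. Chi-square per gene was 2.24 to 32.2 between libraries of a group, so none was a duplicate.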

Additional observations from a re-analysis of the deposited data

Results flagged for a closer look

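Of 68 sets of levels examined in the wild-type (4 libraries) and P2-CTCF-KO (5 libraries) HPC groups, 4 held a library far from the rest by Dixon's criterion (5.88%); chance flags about 1 in 20. Wars was 2.44 CPM in wild-type HPC C8.1 against 3.53 to 3.7 CPM in the others, and Shmt2 0.759 CPM in the same library against 1.46 to 1.58 CPM. Hars was 2.3 CPM in P2-CTCF-KO HPC E9.1 against 0.966 to 1.21 CPM. Slc3a2 was 7.13 CPM in P2-CTCF-KO HPC D2.1-2 against 3.09 to 4.17 CPM.

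The stage step of 2 genes went opposite ways in every clone of 2 genotypes; the difference was not tested. Tars had a mean log2 step from mesoderm to HPCs of -0.94 in the 3 P1-CTCF-KO clones and 0.77 in the 3 wild-type clones, a contrast that contains the comparison behind the list. Of 9170 genes, 1.04% showed such opposite steps between these genotypes. Eprs had a mean step of -0.22 in P1-CTCF-KO and 0.38 in P2-CTCF-KO, where 1.52% of genes did, and its step in P1-CTCF-KO clone E7.2 was only -0.01.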

How the results depend on the processing

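The 4 comparisons between genotypes gave 0 called genes under every alternative run. In the stage steps, the counts called (4 in wild type, 6 in P1-CTCF-KO, 4 in P2-CTCF-KO) ranged from 2 to 5, 2 to 7 and 2 to 5 with each library left out in turn, and 12 and 6 called against undifferentiated cells (mesoderm and HPCs) ranged from 2 to 12 and 3 to 9. Left-out libraries that moved a count by over 1.5 times were wild-type mesoderm B9.3 and C8.1 (2 each), P1-CTCF-KO HPC E7.1 and E7.2 (2 each), P1-CTCF-KO mesoderm E7.1, E7.2 and E9.1 (3 each), P2-CTCF-KO HPC D2.1-2 and mesoderm D2.1 (2 each), and the undifferentiated libraries 1 (2 and 3) and 2 (6). With libraries of a clone summed, the 12 became 6. With no limit on the fold change, 11 passed for HPCs against undifferentiated cells and 8 for the wild-type stage step. Leaving out the wild-type C6.1 and P2-CTCF-KO D2.1 mesoderm libraries together, an alternative chosen after seeing the data, gave 2 in P2-CTCF-KO. With clones paired as a replicate block the stage steps gave 3, 4 and 3 called genes, losing Trib3 in each genotype and Slc7a5 in P1-CTCF-KO; the block changed no other call. No called gene reversed direction. The share of starts with a peak was 64.7% with the wider HPC peaks alone and 2.94% for CTCF within 200 bp. The cause of these changes was not tested. Depth limits Ddit3, Trib3, Slc7a11, Atf5 and Chac1 most, which had 0 to 6 counts in each mesoderm library.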

Other observations

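Lars2, the mitochondrial leucyl enzyme, had far more counts than the other mitochondrial synthetases. Its entry was at 771 and 2680 CPM in the undifferentiated libraries, 7190 to 20500 CPM in mesoderm and 4640 to 16500 CPM in HPCs, where the other 16 mitochondrial synthetases together held 22.3 to 49.1 CPM in every library. The share of counts in ribosomal and multi-locus entries moved with it, at 68.1 and 76.3% in the same undifferentiated libraries and 87.8 to 91% in the others, and its part in the Lars2 counts was not tested.

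TGATGNAA occurred in the promoter windows of 4 of 23 further ATF4 targets (Pck2, Pycr1, Nupr1 and Atf3; 17.4%), of 1 of 14 ER chaperone genes (Herpud1; 7.14%) and of 0 of 17 mitochondrial synthetases, compared with 3.5% of all single-locus genes.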
